A study of Mus musculus with 4 samples.

Results

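Amino acid transporter genes were described here as the members of 6 solute carrier families, Slc1, Slc6, Slc7, Slc36, Slc38 and Slc43. They were found by their symbols in the count table of the series, and Slc7a5 and Slc7a11 were left out by the rule. This gave 57 genes of 27179. The cells were plasmacytoid dendritic cells (pDCs), a dendritic cell type known for strong interferon responses to nucleic acids. Per the labels, they were grown for 8 days with Flt3 ligand from marrow precursors of C57BL/6 mice, and imiquimod, which activates the endosomal receptor TLR7, was then given at 1 µg/ml for 24 h. All libraries carry this treatment, so the comparison is between 2 fractions of stimulated cells: those with and those without signal from a blue fluorescent protein (BFP), a reporter of the chemokine gene Cxcl10. Each group held 2 libraries. The labels give no age or reporter allele, the direction of the CD11b gate on the SiglecH-sorted cells is not clear from them, and a population tag calls the BFP-negative cells CXCL10-positive whereas the design text calls them CXCL10-negative. Only the BFP part was used.

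Solute carriers of these families move amino acids across the plasma membrane and the lysosomal membrane. Cationic amino acids such as arginine and lysine enter through dedicated Slc7 carriers, glutamine and small neutral amino acids enter through Slc1 and Slc38 carriers, and several Slc7 light chains reach the cell surface only when bound to the heavy chain Slc3a2. Lysosomal members pass amino acids between lysosome and cytosol, and Slc38a9 reports lysosomal arginine to the growth kinase complex mTORC1. The family names also cover carriers of other substrates, among them Slc6a8 (creatine), Slc6a2, Slc6a3 and Slc6a4 (monoamines) and Slc43a3 (purine nucleobases). For those 5 genes the family rule does not match the label of amino acid transport.

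Library totals were 11868254 to 12570117 counts, and 13219 to 13533 genes had a count in a library. Levels are depth-scaled counts (CPM) after trimmed-mean (TMM) scaling of the library totals, given as mean ± SD with n = 2 per group. Changes are log2 fold changes, BFP-positive over BFP-negative, with a standard error (SE) and a p from edgeR's quasi-likelihood test, adjusted by Benjamini-Hochberg over all 11706 genes tested and called under 0.05. Cxcl10 checked the labels, with 3 and 19 counts in the BFP-negative libraries and 149 and 154 in the BFP-positive ones. The pDC marker Bst2 was at 1567 to 1867 CPM in all 4 libraries, and 11 pDC markers summed to 4464 to 5053 CPM. Of these 11, Ly6c2, Runx2 and Siglech were higher in BFP-positive cells (log2 fold changes 1.30, 0.85 and 0.39), whereas Ccr9 and Cox6a2 were lower (-0.89 and -0.99). Summed CPM of 12 monocyte and macrophage markers was 185 and 210 in the BFP-negative and 417 and 465 in the BFP-positive libraries. Mertk and C1qa had no count, and 5 of the 9 tested were higher and 1 lower. Single markers moved further than the sums. Log2 fold changes were 7.74 for Csf1r, 5.11 for Fcgr1, 4.01 for Lyz2, 3.28 for Cd14 and 1.61 for Ccr2, and -1.83 for Adgre1. Csf1r, with 3 and 0 counts in the BFP-negative libraries, was tested only because it was high in the BFP-positive ones. For 8 conventional dendritic cell markers, none of them at 0, the sums were 149.9 and 200 against 282 and 329.8 CPM, and 2 of 7 tested were higher. The sums over 6 B-lineage markers were 138 and 125 against 105 and 93.5 CPM, with 2 of 4 tested lower. These markers moved with the groups beside every transporter result that follows, and their part in those results was not tested. Nothing in the labels says that the replicates came from separate animals or cultures. The p-values thus measure the spread between these libraries, estimated in part across genes, and that spread may be technical.

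Of the 57 genes, 28 had no count in any library, 5 had too few counts to be tested, and 24 were tested. Together the 57 genes took 1100 and 1137 CPM in the BFP-negative and 877 and 973 CPM in the BFP-positive libraries, so their summed level was lower in both BFP-positive libraries than in either BFP-negative one. In bulk libraries fewer cells that express a gene and less RNA per cell cannot be told apart. After the test, 2 of the 24 genes were lower in BFP-positive cells, Slc7a3 and Slc7a6, and 0 were higher, where 3.51% of all tested genes were lower and 7.60% higher. At an unadjusted p under 0.05 the counts were 7 lower and 1 higher, against 10.6% and 14.0% of all genes. DESeq2 called 5 lower and 0 higher, where it called 4.79% of all genes lower and 8.85% higher. Limma-voom called 3 lower and 0 higher, against 3.87% and 7.84% of all genes. The libraries of the groups did not overlap in 12 genes that were lower and 4 that were higher in the BFP-positive cells, where 27.1% of all tested genes lay apart in each direction. Among the tested transporter genes 17 log2 fold changes were below 0 and 7 above. Over all 11706 genes tested, 6065 were below 0 and 5641 above. The median of the transporter genes was -0.45, against -0.02 over all genes tested. The 24 genes passed a filter on low counts, so they do not stand for the 57. Slc7a7, counted here as higher, passed it through the BFP-positive libraries alone. Some other genes with few counts reached the minimum in both libraries of only 1 group. Examples are Slc7a4 (82 and 36 counts in BFP-negative against 0 and 12 in BFP-positive libraries) and Slc6a8 (16 and 2 against 38 and 39). The numbers of genes given here do not allow for this. Without BFP-positive replicate 1 the median of the transporter genes was -0.19, against -0.02 over the genes tested in the reported fit.

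**Figure D1:**
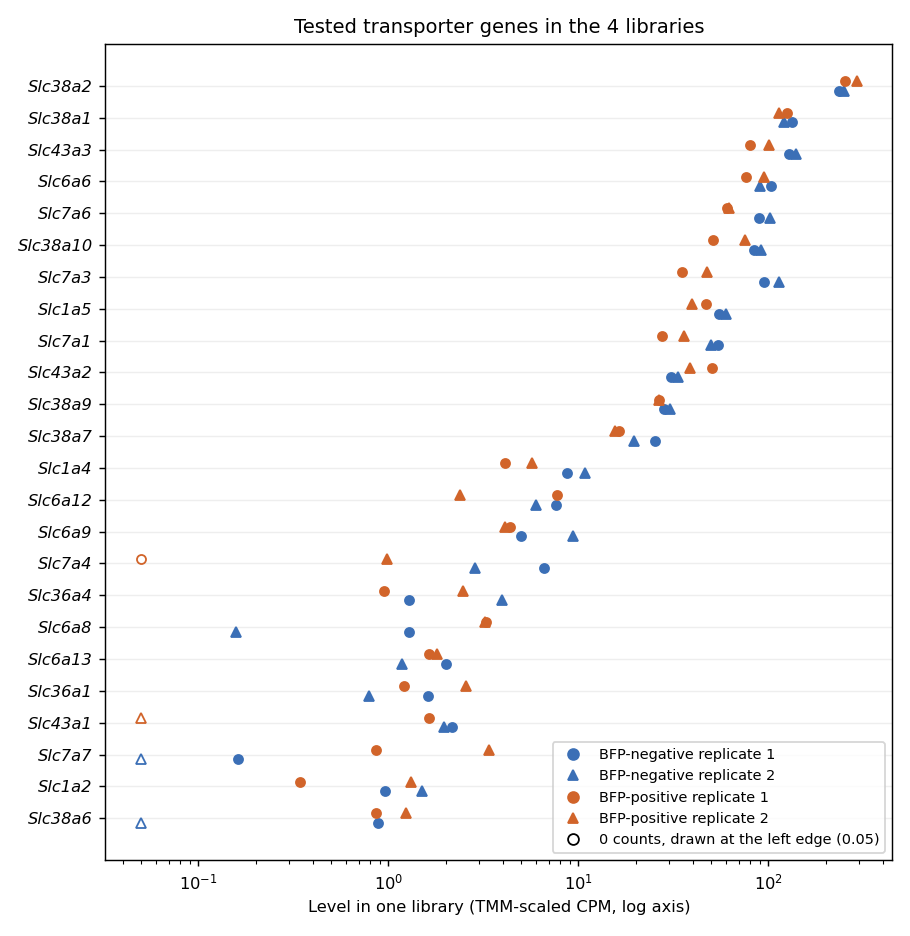
Level of each of the 24 tested transporter genes in the 4 libraries (TMM-scaled CPM, log axis), ordered by mean level. Each point is 1 library, colour gives the group, shape the replicate, and open points at the left edge are libraries with 0 counts; Slc38a2 is highest at 234 to 291 CPM, and Slc7a3 shows the BFP-positive points at 35.2 and 47.6 CPM left of the BFP-negative points at 95.2 and 113 CPM.

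The clearest difference was in Slc7a3 (Entrez gene 11989, GRCm38 chromosome X, 101079146 to 101090452), which encodes a carrier that brings arginine, lysine and ornithine into the cell. Its level was 95.2 and 113 CPM in the BFP-negative libraries and 35.2 and 47.6 CPM in the BFP-positive libraries. Each BFP-positive library was thus below both BFP-negative ones, with group means of 104 ± 12.7 and 41.4 ± 8.76 CPM. The log2 fold change was -1.33, SE 0.20, a 2.52-fold lower level, with adjusted p = 0.00220. Slc7a3 was called in each of the alternatives, including each fit that left out 1 library, where the log2 fold change lay between -1.56 and -1.13. Scaled to gene length (RPKM, as deposited by the authors), Slc7a3 ranked 3 of the 24 in both BFP-negative libraries and 6 and 3 in the BFP-positive ones.

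Slc7a1, the broadly expressed carrier of cationic amino acids (Entrez gene 11987, chromosome 5, 148327410 to 148399904), was at 54.0 and 49.8 CPM in the BFP-negative and 27.4 and 35.8 CPM in the BFP-positive libraries. The groups lay apart, but at a change of -0.72 on the log2 scale, SE 0.21, the gene missed the threshold (adjusted p = 0.0588). DESeq2 called it, with adjusted p = 0.0408, as did edgeR with library totals alone (0.0400). The latter setting moved the median log2 fold change of all tested genes from -0.02 to -0.09. Slc7a2, the remaining cationic carrier of the family, had no count in any library. Summed over Slc7a1, Slc7a2 and Slc7a3, the cationic carriers were at 149 and 163 CPM in BFP-negative and 62.6 and 83.4 CPM in BFP-positive libraries, a ratio of group means of 2.14.

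Slc7a4 (Entrez gene 224022), a relative of the cationic carriers whose substrate is not settled, had 82 and 36 counts in the BFP-negative and 0 and 12 in the BFP-positive libraries. Both BFP-positive libraries were lower than both BFP-negative ones, which themselves stood at 6.59 and 2.84 CPM. Its log2 fold change was -3.22, SE 1.16, adjusted p = 0.113. It passed in DESeq2 (adjusted p = 0.0421), without BFP-negative replicate 2 (0.0484) and without BFP-positive replicate 2 (0.00671), where the lone BFP-positive library left had 0 counts and the size of the change is not measured. In the annotation 13.3% of the exonic bases of Slc7a4 are shared with P2rx6 on the opposite strand, and the libraries do not mark strand.

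Among the light chains that pair with a heavy chain, Slc7a6 (Entrez gene 330836, chromosome 8, 106168219 to 106198714) exchanges intracellular cationic amino acids such as arginine for neutral amino acids and sodium. Its level was 88.7 and 102 CPM in BFP-negative and 60.8 and 62.3 CPM in BFP-positive libraries. The BFP-positive pair lay close together and below both BFP-negative libraries. The log2 fold change was -0.63, SE 0.17, a 1.55-fold lower level, with adjusted p = 0.0369. Leaving out BFP-negative replicate 2 ended the call (adjusted p = 0.157), as did leaving out either BFP-positive replicate (0.1496 and 0.135). With the deposited log2 RPKM in limma it was also lost (adjusted p = 0.0529).

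Slc7a7 (Entrez gene 20540) encodes the closest functional relative of Slc7a6, a light chain with the same exchange activity that exports cationic amino acids from intestinal and renal epithelium and is also present in macrophages; its loss in humans causes lysinuric protein intolerance. It was nearly silent in BFP-negative cells, with 2 and 0 counts, and had 10 and 41 counts in the BFP-positive libraries. Both BFP-positive libraries were higher, and they differed widely from each other. The ratio of BFP-positive to BFP-negative counts was 26.9, with an exact binomial 95% interval of 7.08 to 228 that covers counting error only. Slc7a7 reached the filter's minimum count of 10 in the BFP-positive libraries alone. It was thus tested only because it was high there, and the ratio and interval do not allow for this. The fitted log2 fold change of 4.56, SE 1.41 did not pass (adjusted p = 0.0669; 0.0502 in DESeq2 and 0.106 in limma-voom). Per length, the group levels were 0.672 RPKM for Slc7a7 and 16.1 RPKM for Slc7a6 in BFP-positive cells. Without BFP-positive replicate 2 the gene did not pass the filter and could not be tested. The monocyte and macrophage marker sum moved the same way as Slc7a7, and whether it bears on this gene was not tested. Slc7a8 had 0 and 7 counts in BFP-negative and 1 and 0 in BFP-positive libraries, and Slc7a9, Slc7a10, Slc7a12, Slc7a13 and Slc7a15 had none.

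The heavy chain that carries Slc7a6 and Slc7a7 to the surface, Slc3a2 (chromosome 19, 8706882 to 8723369), is not a member but was lower, like Slc7a6. It was at 469.8 and 515 CPM in BFP-negative and 339 and 366 CPM in BFP-positive libraries. Its log2 fold change was -0.48, SE 0.12, adjusted p = 0.0294, and the groups did not overlap. It was no longer called once BFP-negative replicate 2 or either BFP-positive replicate was removed (adjusted p = 0.107, 0.207 and 0.103). The other heavy chain, Slc3a1, had no count.

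**Figure D2:**
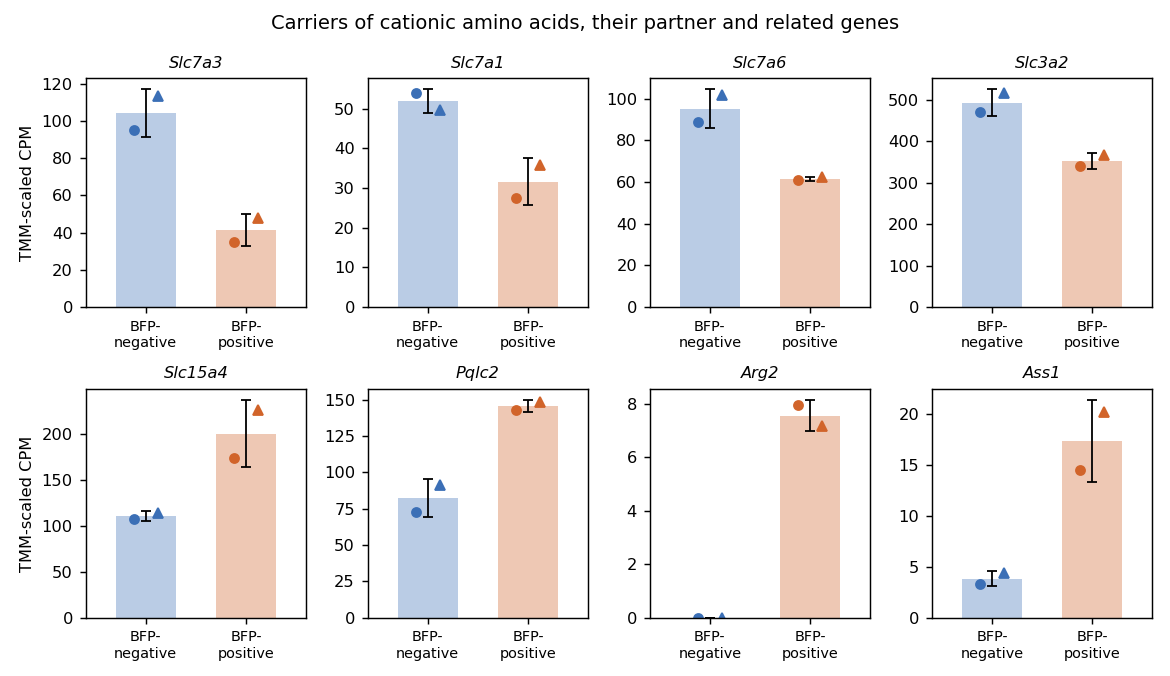
Levels (TMM-scaled CPM, linear axes from 0) of Slc7a3, Slc7a1, Slc7a6, Slc3a2 (the heavy chain of Slc7a6) and 4 related genes. Bars are group means, error bars SD with n = 2, points single libraries with replicate 1 as circles and replicate 2 as triangles; the plasma membrane carriers are lower and Slc15a4, Pqlc2, Arg2 and Ass1 higher in the BFP-positive libraries, with Slc7a1 not past the test.

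Promoter sequences of the members were looked at because amino acid carriers include known targets of Atf4, the transcription factor of amino acid shortage, which binds C/EBP-ATF response elements together with C/EBP partners. The letters TGATGNAA were searched on both strands in windows of 250 bases before to 50 after annotated starts (RefSeq, GRCm38.p6). The form TTGCATCA is contained in that search, since its reverse complement is TGATGCAA. Of the 40 members with a window, 3 held the letters (7.5%), Slc1a4, Slc7a7 and Slc6a21, whereas 4.51% of all 27025 genes with a window did. TTGCATCA in either orientation was in 2 of the 40 members, Slc1a4 and Slc7a7, and in 1.03% of all genes. Slc7a6 had no match in its windows, and Slc7a3 had no window in the table. Shown are the windows of the called gene Slc7a6 (chr8:106168604-106168903, plus strand) and of both members with the TTGCATCA form, Slc1a4 (chr11:20332664-20332963, minus strand) and Slc7a7 (chr14:54417895-54418194, minus strand). Each reads 5′ to 3′ along its gene, with the matched letters in capitals.
Slc7a6: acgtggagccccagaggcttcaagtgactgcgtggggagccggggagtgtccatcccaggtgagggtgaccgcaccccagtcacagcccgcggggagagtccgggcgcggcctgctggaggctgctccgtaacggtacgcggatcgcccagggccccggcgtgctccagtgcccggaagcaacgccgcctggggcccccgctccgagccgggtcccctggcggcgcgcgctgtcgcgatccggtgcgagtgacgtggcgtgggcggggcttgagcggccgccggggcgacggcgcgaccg
Slc1a4: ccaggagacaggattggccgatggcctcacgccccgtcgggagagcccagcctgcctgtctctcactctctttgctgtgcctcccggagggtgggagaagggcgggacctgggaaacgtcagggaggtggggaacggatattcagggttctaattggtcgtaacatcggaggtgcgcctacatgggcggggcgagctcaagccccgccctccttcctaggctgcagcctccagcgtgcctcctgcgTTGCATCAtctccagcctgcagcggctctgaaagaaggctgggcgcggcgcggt
Slc7a7: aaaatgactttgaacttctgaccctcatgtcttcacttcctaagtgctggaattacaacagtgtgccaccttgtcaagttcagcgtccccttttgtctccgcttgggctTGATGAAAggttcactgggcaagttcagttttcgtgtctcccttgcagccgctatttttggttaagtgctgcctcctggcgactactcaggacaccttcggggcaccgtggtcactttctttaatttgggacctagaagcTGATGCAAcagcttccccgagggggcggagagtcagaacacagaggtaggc
The match of Slc1a4 begins 4 bases before the annotated start, and the Slc7a7 matches begin 141 and 1 bases before it. A match is a description of letters and not a binding site. Atf4 itself was at 82.6 and 70.4 CPM in BFP-negative and 54.2 and 56.8 CPM in BFP-positive libraries and did not pass (log2 fold change -0.46, SE 0.18, adjusted p = 0.129).

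The neutral exchangers of the Slc1 family were lower in BFP-positive libraries without passing the test. Slc1a5, the exchanger best known for glutamine uptake, was at 55.0 and 60.02 CPM in BFP-negative and 46.8 and 39.6 CPM in BFP-positive libraries. Its groups lay apart, with a log2 fold change of -0.41, SE 0.19, adjusted p = 0.216. Slc1a4, which exchanges serine, alanine and cysteine and whose promoter window is printed above, was at 8.68 and 10.9 against 4.12 and 5.68 CPM. Each BFP-positive library was below both BFP-negative ones, but the gene missed the threshold with a log2 fold change of -0.995, SE 0.43 (adjusted p = 0.184). The glutamate carriers, known from neurons and glia, were close to absent. Slc1a2 had 12 and 19 against 4 and 16 counts, Slc1a1 had 5 counts in BFP-positive replicate 2 only, and Slc1a3, Slc1a6 and Slc1a7 had none.

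Slc38 carriers of small neutral amino acids at the plasma membrane included the member with the highest level per length, and none of them passed the test. Slc38a2, the sodium-coupled carrier of alanine and glutamine that cells adapt to amino acid supply, ranked 1 per length in all 4 libraries. Its level was 234 and 249 CPM in BFP-negative and 253 and 291 CPM in BFP-positive libraries. The groups lay just apart, with a log2 fold change of 0.17, SE 0.13, adjusted p = 0.486. Slc38a1, a related glutamine carrier, was at 134 and 120.1 against 126 and 114 CPM, and the groups overlapped. Slc38a2 alone, not scaled to length, made up 21.3% and 21.9% of the summed transporter CPM in BFP-negative and 28.8% and 29.96% in BFP-positive libraries. Slc38a10, for which glutamine, glutamate and alanine transport has been described, was at 84.0 and 91.0 against 51.0 and 75.0 CPM. All values were lower in the BFP-positive libraries, with a log2 fold change of -0.47, SE 0.20, adjusted p = 0.185. Slc38a6 had 0 to 15 counts in a library, Slc38a3 had 11 counts in BFP-negative replicate 1 only, and Slc38a4, Slc38a5, Slc38a8 and Slc38a11 had none.

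**Figure D3:**
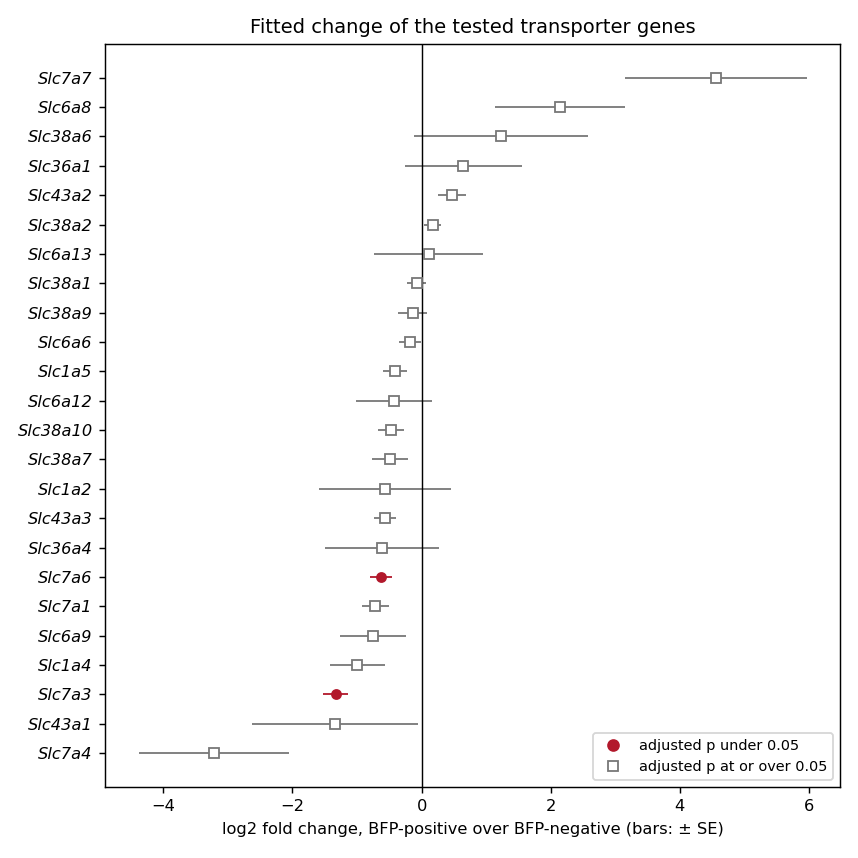
Log2 fold change of the 24 tested transporter genes, BFP-positive over BFP-negative, with bars of ± SE. Filled red circles mark the 2 genes past an adjusted p of 0.05, Slc7a6 at -0.63 and Slc7a3 at -1.33; the widest bars belong to genes with few counts such as Slc7a7, Slc38a6 and Slc43a1.

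Lysosomal members did not pass the test. Slc38a9, the arginine sensor of mTORC1, was at 28.2 and 30.3 CPM in BFP-negative and 26.7 and 26.4 CPM in BFP-positive libraries. Its groups lay apart by a small margin, with a log2 fold change of -0.14, SE 0.22, adjusted p = 0.768. Slc38a7, which exports glutamine from the lysosome, was at 25.2 and 19.7 against 16.4 and 15.6 CPM; the groups lay apart without passing (-0.49 on the log2 scale, SE 0.28, adjusted p = 0.317). The carriers Slc36a1 and Slc36a4, which are linked to mTORC1 activity, were low. Slc36a1 had 20 and 10 counts in BFP-negative and 14 and 31 in BFP-positive libraries, and Slc36a4 had 16 and 50 against 11 and 30. In both genes the groups overlapped; on the log2 scale Slc36a1 differed by 0.65, SE 0.90, and Slc36a4 by -0.61, SE 0.88. Slc36a2 had no count and Slc36a3 had 3 counts in BFP-positive replicate 1.

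Of the 3 Slc43 carriers, 1 was higher and 2 were lower in the BFP-positive libraries, none past the test. Slc43a2, which lets leucine and other large neutral amino acids pass down their gradient, was at 30.8 and 33.4 CPM in BFP-negative and 50.6 and 38.5 CPM in BFP-positive libraries. Its log2 fold change was 0.47, SE 0.22, and the groups lay apart, but it did not pass (adjusted p = 0.214). In the annotation 9.18% of its exonic bases are shared with an antisense gene. Slc43a1, a relative with like substrates, had 27 and 25 against 19 and 0 counts. Slc43a3, the nucleobase carrier, ranked 2 per length in every library. It was at 129 and 139.6 CPM in BFP-negative and 80.2 and 101 CPM in BFP-positive libraries, all lower in the latter. The log2 fold change of Slc43a3 was -0.57, SE 0.17, with an adjusted p of 0.0547 that misses the threshold. Limma-voom, DESeq2 and edgeR with library totals alone called it (0.0405, 0.0210 and 0.0315). The last of these settings moved the median log2 fold change of all tested genes from -0.02 to -0.09.

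The Slc6 family, best known for neurotransmitter uptake, was mostly silent, with 13 of 19 members without a count, among them Slc6a2, Slc6a3, Slc6a5, Slc6a7, Slc6a11, Slc6a14, Slc6a15, Slc6a16, Slc6a17, Slc6a18, Slc6a19 and Slc6a21. Its highest member per length was the taurine carrier Slc6a6, at 15.9 and 13.4 RPKM by group and at 103 and 90.1 CPM in BFP-negative and 76.0 and 94.7 CPM in BFP-positive libraries. Those groups overlapped, with a change of -0.18, SE 0.17, on the log2 scale (adjusted p = 0.603). Slc6a8, the creatine carrier, had 16 and 2 counts in BFP-negative and 38 and 39 in BFP-positive libraries. The groups lay apart and the BFP-negative libraries differed widely, with a log2 fold change of 2.15, SE 1.01, adjusted p = 0.224. Slc6a9, a glycine carrier, was at 4.98 and 9.38 against 4.38 and 4.12 CPM, and 30.3% of its exonic bases are shared with genes on the opposite strand, B4galt2 and Ccdc24 among them, so its level is uncertain. Slc6a12 and Slc6a13, which carry betaine and GABA, overlapped between the groups at 2.39 to 7.72 and 1.18 to 2.01 CPM. Slc6a4, the serotonin carrier, had 13 counts in BFP-positive replicate 2 and none elsewhere. The remaining silent members, Slc7a14 included, were not detectable at this depth, where a count of 0 allows up to 3 counts, 0.239 to 0.253 CPM in a library, for counting error only.

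**Figure D4:**
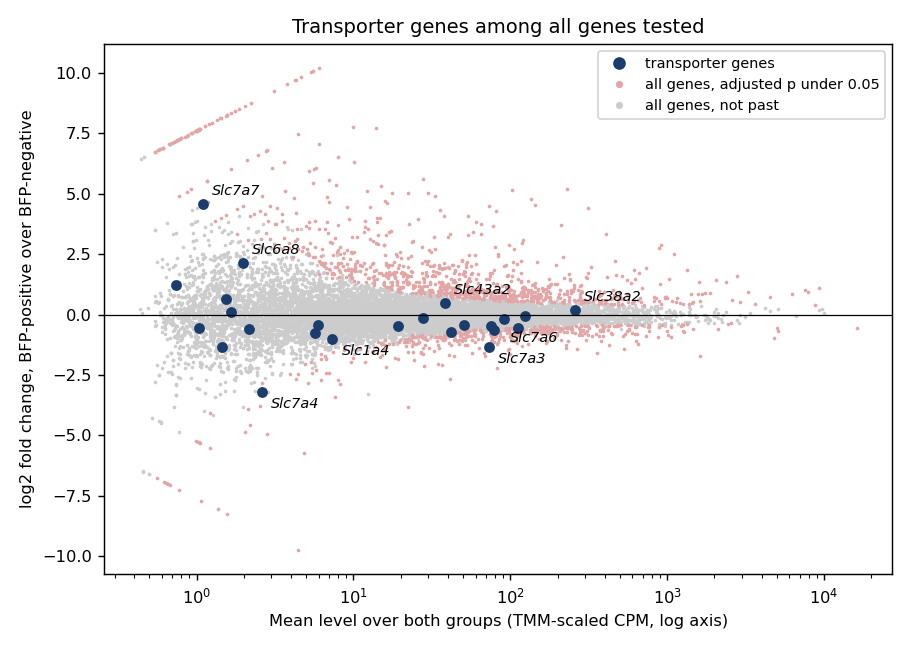
Log2 fold change (BFP-positive over BFP-negative) against mean level over both groups (TMM-scaled CPM, log axis) for all 11706 genes tested, each point a gene. Transporter genes are dark blue; Slc7a3 at -1.33 and Slc7a6 at -0.63 lie among genes past an adjusted p of 0.05, while Slc7a7 at 4.56 and Slc7a4 at -3.22 lie at low levels where grey points spread widely.

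Other carriers of amino acids and peptides, from a list of 13 genes, included 6 that were tested, with 2 higher and 1 lower (median log2 fold change 0.31). Among all tested genes the shares were 7.60% higher and 3.51% lower. Slc15a4, the lysosomal histidine and peptide carrier that pDCs need for TLR7 and TLR9 signalling, was at 107 and 114 CPM in BFP-negative and 174 and 226 CPM in BFP-positive libraries. Its rise was a log2 fold change of 0.85, SE 0.16 (adjusted p = 0.00761), and the call was lost without BFP-positive replicate 2 (0.0668). Its paralogue Slc15a3 fell, from 173 and 166 CPM to 91.6 and 109 CPM (-0.75, SE 0.15, adjusted p = 0.0104; 0.0841 without BFP-positive replicate 1). The lysosomal exporter of cationic amino acids, listed as Pqlc2 and now named Slc66a1, rose from 73.0 and 91.4 to 143 and 149 CPM. This rise of 0.82 on the log2 scale, SE 0.16, passed (adjusted p = 0.00957), and its direction was opposite to that of Slc7a3 at the plasma membrane.

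Among genes that signal amino acid supply to mTORC1, 1 of 37 tested was higher and 2 were lower, beside 7.60% and 3.51% of all genes, and the median log2 fold change was 0.05. Castor2, listed as Gatsl2, a paralogue of the cytosolic arginine sensor Castor1, rose from 3.86 and 1.42 CPM to 21.4 and 24.2 CPM, a change of 3.11 on the log2 scale, SE 0.46 (adjusted p = 0.00217). Castor1 itself, listed as Gatsl3, was at 13.8 and 17.7 against 17.7 and 14.3 CPM and overlapped. Wdr59, a subunit of the GATOR2 complex that activates mTORC1, fell from 61.6 and 70.4 to 27.0 and 30.04 CPM (-1.21, SE 0.20, adjusted p = 0.00342). Sesn1, a sestrin that restrains GATOR2, fell with a log2 fold change of -0.96, SE 0.25 (adjusted p = 0.0348). Removing BFP-negative replicate 1 ended that call (adjusted p = 0.219), and so did removing BFP-positive replicate 2 (0.105).

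Enzymes of amino acid synthesis and breakdown changed in both directions, with 5 of 34 tested higher and 6 lower (median log2 fold change -0.18). Over all tested genes, 7.60% were higher and 3.51% lower. Arg2, the mitochondrial arginase, had no count in BFP-negative cells and 7.98 and 7.16 CPM in BFP-positive cells. Set against 3 counts over the BFP-negative group, it was at least 63.3-fold higher (adjusted p = 0.00103 in edgeR's quasi-likelihood test). Arg2 met the low-count filter through the BFP-positive libraries alone. It was thus tested only because it was high there, and the bound and the p do not allow for this. Kmo and Kynu, enzymes of the kynurenine route of tryptophan breakdown, rose from 350.3 and 329.02 to 622 and 669 CPM and from 12.7 and 12.6 to 49.3 and 53.01 CPM. Il4i1, a secreted oxidase of aromatic amino acids, rose with a log2 fold change of 2.57, SE 0.41. Phgdh, the entry enzyme of serine synthesis, fell from 285 and 345 to 138 and 159 CPM, and Shmt2, which converts serine to glycine in mitochondria, from 359 and 394 to 217 and 221 CPM. On the log2 scale Phgdh changed by -1.09, SE 0.15, and Shmt2 by -0.79, SE 0.12. Of 16 tested regulators of carrier expression, 1 was called: Myc, a transcription factor known to raise amino acid carrier genes, fell from 139 and 144 to 44.1 and 58.8 CPM, or by -1.46 on the log2 scale, SE 0.18 (adjusted p = 0.000628). This was 1 lower call of 16 and 0 higher, beside 3.51% and 7.60% of all tested genes, and the regulators' median was -0.15.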

How the data were processed

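RNA-seq counts were analysed for 4 libraries, 2 per group, grouped by the sample titles. A Qiagen RNeasy kit gave the RNA and a Clontech SMART-Seq kit the full-length cDNA libraries, per the labels' protocols; the latter marks neither strand nor molecules. The authors deposited raw counts per gene and, per library, log2 RPKM values. Tools named in the submitters' processing notes are limma, Subread and featureCounts, and builds are mm10 and GRCm38; their versions and settings are not given in the sources used here. Among genes with many counts, the deposited log2 RPKM differ from log2 CPM by library totals by a constant per gene, to within 0.000463 in 8529 genes.

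Genes were filtered by filterByExpr (minimum count 10, minimum total 15), leaving 11706, with 15473 not tested; TMM factors were 0.973 to 1.04. Groups were compared by the two-sided quasi-likelihood test of edgeR 4.0.16 in R 4.3.3, without covariates. Each gene had 2 residual degrees of freedom, and the biological coefficient of variation was 24.7%. The test estimates a gene's spread partly from all tested genes. The SE was the size of the log2 fold change divided by the square root of F. The procedure was tested on simulated data with independent libraries and the same coefficient of variation for every gene, a simpler setting than these data. Alternatives used DESeq2 1.42.0, limma 3.58.1 and each library left out. All counting intervals and floors leave out PCR duplication. Replicates were separate libraries by their counts (chi-square per degree of freedom 18.9 and 14.9 within groups). Positions and promoter sequences are from RefSeq (GRCm38.p6), where all 57 members matched by Entrez identifier, 40 of them with a promoter window; exon overlaps are from GENCODE on GRCm38.

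Members and gene lists were chosen with earlier results of these data known. Named in full were called members, the highest member per length of each family and the lysosomal sensors, and from each list up to 6 called genes by smallest p. No set test was run. A few genes are not reported here by name.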

Additional observations from a re-analysis of the deposited data

How the results depend on the processing

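Under all 11 alternatives Slc7a3 stayed called and lower. The number of transporter genes called lower, 2 in the reported fit, was 4 with library totals alone, 5 in DESeq2, 1 with limma on the deposited log2 RPKM and 4 with the replicate block; with 1 library left out it was 1 to 2. No alternative called a transporter gene higher. Over all genes the 890 higher and 411 lower calls became 559 to 921 and 245 to 408 with 1 library left out, and 760 were lower with the replicate block. Library totals alone also called Slc7a1 and Slc43a3 (adjusted p = 0.0400 and 0.0315), as did the replicate block (0.0337 and 0.0127). With library totals alone the median log2 fold change of all tested genes was -0.09, against -0.02 in the reported fit. For library totals and for the deposited log2 RPKM, the share of all genes called lower is not given here. The transporter counts under those settings thus cannot be told apart from a shift over all genes. The replicate numbers share only a code of unknown meaning. Deviations of same-numbered libraries correlated at 0.0594 across genes. The mast cell marker Cpa3 had 31 counts in BFP-negative and 39 in BFP-positive replicate 2, and none in either replicate 1. The basophil and mast cell markers Mcpt8 (77 and 8 counts) and Fcer1a (27 and 3) were likewise found in replicate 2 only. The labels do not say whether the numbers pair the libraries, and the reported fit did not pair them. Among transporter genes not called, leaving out 1 library gave log2 fold changes on both sides of 0 for Slc1a2 (-1.81 to 0.10), Slc6a12 (-1.51 to 0.18), Slc6a13 (-0.20 to 0.54), Slc36a4 (-1.46 to 0.43) and Slc38a1 (-0.15 to 0.0061). The cause was not tested. Fits of the genes outside the 6 families under these settings were added after seeing the data; Sesn1 was also lost with limma on the deposited log2 RPKM (adjusted p = 0.0768). With 1 library left out, the lone library of a group is assumed to vary like the other group. Low counts limit Slc7a4, Slc7a7, Slc6a8, Slc36a1 and Slc36a4, whose SE was 0.88 to 1.41.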

Other observations

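Of the called enzymes of amino acid synthesis and breakdown, 5 fell outside the naming rule and were looked at after their values were seen. Ass1, which builds the precursor from which arginine is remade, rose from 3.29 and 4.34 CPM in BFP-negative to 14.5 and 20.2 CPM in BFP-positive libraries (log2 fold change 2.18, SE 0.39, adjusted p = 0.00562 in edgeR's quasi-likelihood test). Psph, the last enzyme of serine synthesis, fell with a log2 fold change of -0.94, SE 0.18. Pycr1 and Pycrl, enzymes of proline synthesis, fell from 21.3 ± 0.845 to 9.10 ± 1.10 CPM and to 53.9 ± 6.25 CPM from a mean of 94.0 CPM. Mat2a, which makes S-adenosylmethionine from methionine, fell from 469 ± 24.3 to 325 ± 16.4 CPM. The calls of Ass1 and Psph held with each library left out. Those of Pycr1 and Mat2a were lost without BFP-negative replicate 1 (adjusted p = 0.0614 and 0.0574), without BFP-positive replicate 1 (0.111 and 0.0706) and without BFP-positive replicate 2 (0.0502 and 0.166), and that of Pycrl without BFP-negative replicate 2 (0.0980) and BFP-positive replicate 1 (0.106).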
